A study of Solanum lycopersicum with 12 samples.

Results

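A set of 8 regulators of the jasmonate response was followed in tomato leaflets attacked by the leafminer *Tuta absoluta*. They are the 8 members of a list chosen by gene identifier, out of 34075 genes counted: the MYC factor *Solyc08g076930*, MYC1 of the trichomes (*Solyc08g005050*), the repressors MTB1 (*Solyc01g096050*), MTB2 (*Solyc05g050560*) and MTB3 (*Solyc06g083980*), the NAC factors JA2 (*Solyc12g013620*) and JA2L (*Solyc07g063410*), and the receptor COI1 (*Solyc05g052620*). The paper calls *Solyc08g076930* SlMYC1 and ties it to type VI trichomes and terpene emission. The RefSeq gene table gives SlMYC1 as a synonym of MYC1, which it lists beside MYC2 on chromosome 8 without either identifier. To keep it apart from MYC1 of the trichomes, *Solyc08g076930* is named by its identifier here. The members were chosen with earlier results of these data known, so their calls beside the share over all genes are a description only.

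As background, the hormone jasmonoyl-isoleucine is made when a leaf is wounded or chewed, and it is perceived by the F-box protein COI1. COI1 with its ligand marks JAZ repressors for degradation, which frees MYC-type bHLH factors to switch on defence genes such as proteinase inhibitors. MTB proteins are bHLH factors that were described in tomato as antagonists of MYC-driven transcription, and so as a brake on the response. JA2 and JA2L are close NAC relatives described in tomato guard cells, JA2 with abscisic acid and stomatal closure and JA2L with jasmonate and stomatal reopening. MYC1 is known for its part in the formation of type VI glandular trichomes and in terpene synthesis.

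All plants were of 1 cultivar, Better Bush, a dwarf hybrid grown hydroponically, and no transgene or mutation is named for any group. On infested plants 6 larvae were placed on the 3 terminal leaflets of a true leaf, whose number differs between the labels and the paper, and control plants had a mock deposition, with 6 plants per treatment. Leaflets were frozen after 5 h or 24 h of herbivory, without the larvae, and each combination of treatment (infested, control) and harvest (5 h, 24 h) gave 3 libraries. The sources used here do not say whether a library holds 1 plant, so that p-values measure the spread between these libraries only.

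The deposited values are counts of reads per gene, from 19655669 to 28209033 per library. They were scaled to CPM, counts relative to the effective library total, with edgeR's TMM factors, which ran from 0.886 to 1.25, the highest being that of infested 24 h replicate 2. The filter of the study asks for over 1 CPM in 3 or more libraries, and 18200 genes passed it, all 8 members included. Every member was above 1 CPM in each control library of 5 h, so none passed through the infested libraries alone. As a check of the label leaf, 10 listed light-harvesting genes summed to between 652.4 and 1832 CPM in infested 24 h, between 3988 and 6560 CPM in control 24 h, between 29620 and 41460 CPM in infested 5 h and between 36880 and 44010 CPM in control 5 h libraries. None of the 10 was called at 5 h, all 10 were lower in infested leaves at 24 h, and all 10 were lower in control 24 h than in control 5 h. The paper reports photosynthesis among the processes linked to genes down-regulated at the later harvest in these same libraries. The decrease in infested leaves at 24 h thus gives no independent evidence. The part of these light-harvesting genes in the results on the members was not tested.

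After 5 h of herbivory, 6 of the 8 genes were up-regulated, 1 was down-regulated (COI1) and MYC1 was not called. After 24 h, the 6 genes *Solyc08g076930*, MTB1, MTB2, MTB3, JA2 and JA2L were up-regulated, as at 5 h, and neither MYC1 nor COI1 was called. A gene is called here at an adjusted p below 0.05 in edgeR's quasi-likelihood test. The methods of the study state a further limit of 1.5 on the absolute log2FC. With it, 5 of the 8 genes were called at 5 h, without COI1 and MTB3, and 4 at 24 h, without MTB1 and MTB3. Over all 18200 genes tested, that limit left 778 called at 5 h and 817 at 24 h, against 2280 and 4418 without it. The paper reports numbers of differentially expressed genes closer to those without the limit, so the limit as applied here may not match its own criterion. Without the limit, 12.5% of all genes tested were called at 5 h (6.94% up and 5.59% down) and 24.3% at 24 h (11.8% up and 12.5% down). The infested libraries lay above all controls of their harvest for 6 of the 8 genes at both times, against 17.5% of all genes at 5 h and 17.8% at 24 h. They lay below all controls for 1 gene at 5 h and 2 genes at 24 h, against 18.3% of all genes at 5 h and 18.6% at 24 h. The median log2 fold change (log2FC, infested over control) of the 8 genes was 2.15 at 5 h and 1.51 at 24 h, while that of all genes tested was -0.03 at 5 h and 0.02 at 24 h.

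**Figure D1:**
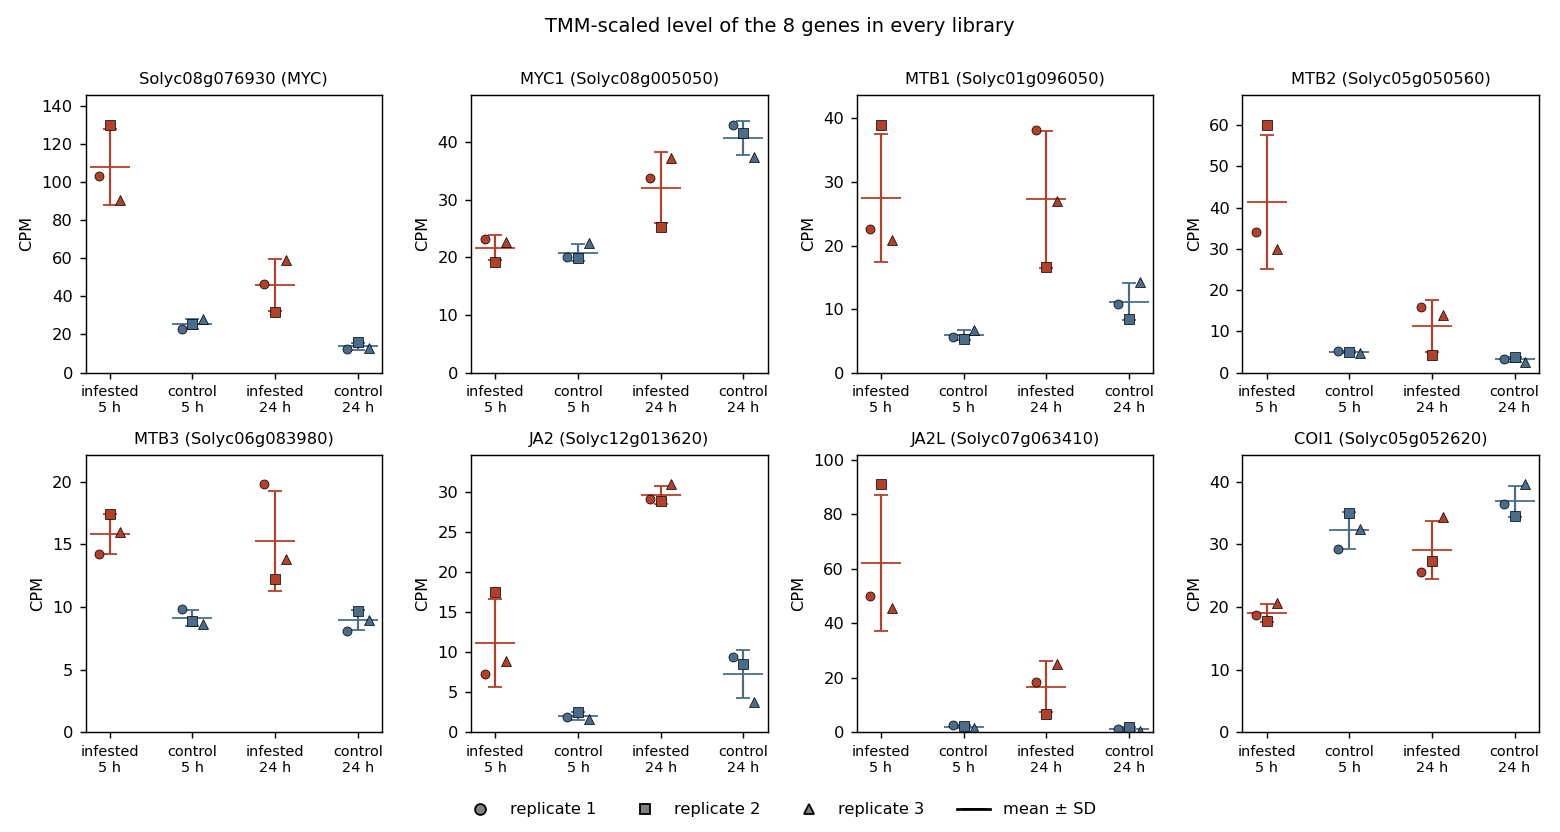
TMM-scaled level of each of the 8 genes (CPM, linear axes from 0) in every library, with infested groups in red and control groups in blue, marker shapes for replicates 1 to 3, and lines for the mean and SD of 3 libraries. For 6 genes the infested libraries sit above the controls of their harvest at both times, as for JA2L with 45.5 to 90.9 CPM in infested 5 h and 1.43 to 2.49 CPM in control 5 h, and JA2 and JA2L are highest at different harvests.

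The MYC factor *Solyc08g076930*, a bHLH activator, had 103, 130 and 90.7 CPM in the infested leaves of 5 h, against 22.7, 25.4 and 28.3 CPM in the controls. Its infested leaves of 24 h had 46.7, 31.8 and 58.9 CPM, against 12.3, 16.0 and 13.1 CPM in controls. Infested and control libraries did not overlap at either time, and infested 24 h replicate 2 was the lowest of the infested libraries. Its log2FC was 2.08 (SE, the standard error, 0.21, adjusted p = 7.66e-05 by edgeR) at 5 h and 1.73 (SE 0.21, adjusted p = 0.000405 by edgeR) at 24 h, or 4.23-fold and 3.32-fold. The level without larvae differed between the harvests too, at 13.8 ± 1.96 CPM (SD, n = 3) in control 24 h and 25.5 ± 2.81 CPM (SD, n = 3) in control 5 h, a log2FC of -0.89 (SE 0.21, adjusted p = 0.00816 by edgeR). The infested level of 24 h thus stood above the controls of both harvests and below every infested library of 5 h. The paper already cites the induction of this gene in these same libraries, so its rise here gives no independent evidence. From this and other genes the paper proposes an induced synthesis of volatiles.

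MYC1 was not called against the controls at either time. It had 23.1, 19.2 and 22.7 CPM in infested 5 h, against 20.0, 19.9 and 22.5 CPM in control 5 h, and these libraries overlapped. The log2FC at 5 h was 0.06 (SE 0.15, adjusted p = 0.855 by edgeR). After 24 h the values were 33.8, 25.2 and 37.2 CPM in infested leaves, against 43.0, 41.6 and 37.4 CPM in controls, so that each infested library was lower than each control, the closest pair by a narrow margin. The log2FC of -0.35 (SE 0.15, adjusted p = 0.105 by edgeR) was not called. It was called between the controls, with 40.7 ± 2.94 CPM (SD, n = 3) in control 24 h and 20.8 ± 1.48 CPM (SD, n = 3) in control 5 h, a log2FC of 0.97 (SE 0.15, adjusted p = 0.000435 by edgeR). In whole leaflets, the number of trichome cells and the RNA level per cell cannot be told apart. The cells that gave the MYC1 reads were not identified, and other trichome genes were not analysed here.

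The count of *Solyc08g076930* relative to that of MYC1 within a library puts these bHLH genes side by side. Gene lengths do not enter this ratio, so that only its differences between libraries can be read. The log2 count ratio lay between 2.0 and 2.76 in infested 5 h and between 0.182 and 0.354 in control 5 h. It lay between 0.340 and 0.662 in infested 24 h and between -1.81 and -1.38 in control 24 h. Infested and control libraries were apart at both harvests, and the ratio was lower at 24 h than at 5 h in control leaves and in infested leaves alike.

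Of the MTB repressors, MTB2 had the largest log2FC and MTB3 the smallest at both times. MTB2 had 34.1, 60.1 and 30.0 CPM in infested 5 h, against 5.30, 5.06 and 4.77 CPM in control 5 h, a log2FC of 3.04 (SE 0.42, adjusted p = 0.000559 by edgeR) or 8.21-fold. At 24 h it had 15.8, 4.19 and 14 CPM in infested leaves, against 3.39, 3.80 and 2.58 CPM in controls. Replicate 2 of the infested leaves was thus close to the controls at 24 h, and the others stood well above them. The log2FC at 24 h was 1.79 (SE 0.42, adjusted p = 0.00963 by edgeR).

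MTB1 had 22.6, 39.0 and 20.8 CPM in infested 5 h, against 5.66, 5.30 and 6.73 CPM in control 5 h, a log2FC of 2.22 (SE 0.33, adjusted p = 0.000840 by edgeR). Its infested leaves of 24 h had 38.2, 16.6 and 27.0 CPM, against 10.8, 8.41 and 14.3 CPM in controls, a log2FC of 1.29 (SE 0.31, adjusted p = 0.0119 by edgeR). The infested means were close at the harvests (27.3 ± 10.8 CPM at 24 h and 27.5 ± 10.0 CPM at 5 h, SD, n = 3 each), whereas the control mean was 11.1 ± 2.95 CPM at 24 h and 5.89 ± 0.742 CPM at 5 h (SD, n = 3 each). This difference between controls had an edgeR adjusted p of 0.0512. It was called with DESeq2 (adjusted p = 0.0163) and the likelihood ratio test (0.0246), and the adjusted p was between 0.0163 and 0.159 over all alternatives.

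MTB3 changed least among the up-regulated genes. It had 14.2, 17.4 and 16.0 CPM in infested 5 h, against 9.85, 8.89 and 8.64 CPM in control 5 h, a log2FC of 0.80 (SE 0.18, adjusted p = 0.0125 by edgeR). Leaving out infested 5 h replicate 2 or control 5 h replicate 3 ended this call, with an adjusted p of up to 0.0608. After 24 h the values were 19.8, 12.2 and 13.8 CPM in infested leaves, against 8.11, 9.72 and 8.96 CPM in controls, a log2FC of 0.77 (SE 0.18, adjusted p = 0.00983 by edgeR). The libraries did not overlap at either time, and the call at 24 h was lost only when the 6 libraries of that harvest were fitted alone (adjusted p = 0.0556) or under the limit of 1.5 on the absolute log2FC. The MTB genes and *Solyc08g076930* all encode bHLH proteins, and the sources used here do not give how reads matching more than 1 gene were counted.

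**Figure D2:**
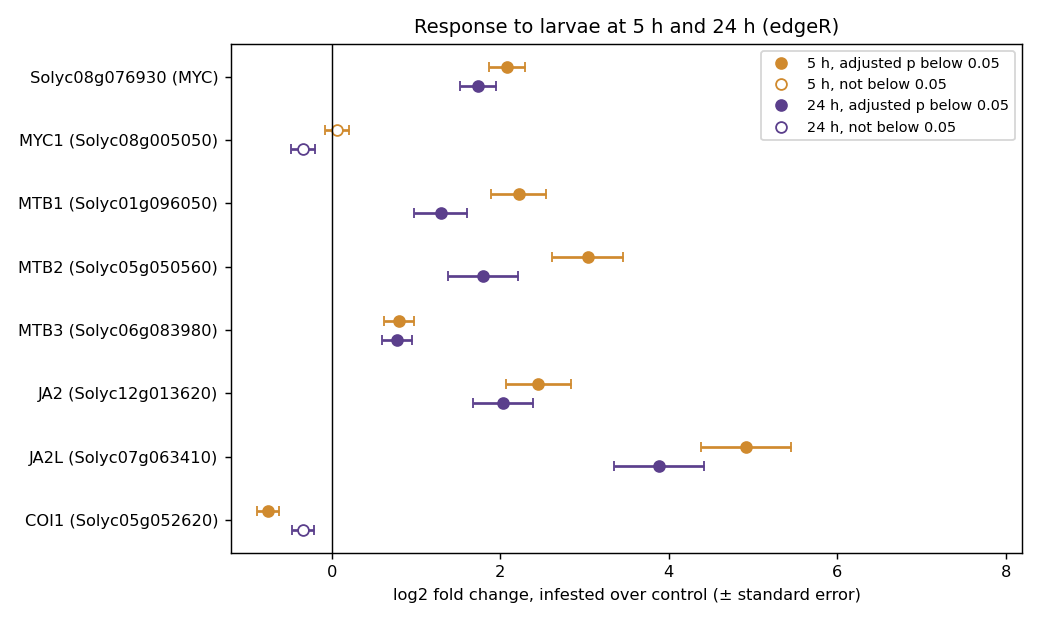
log2 fold change of infested over control leaves with its standard error for each of the 8 genes, in orange at 5 h and in purple at 24 h, from 3 against 3 libraries at each time. Filled points have an edgeR adjusted p below 0.05 and open points do not, which are MYC1 at both times and COI1 at 24 h.

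JA2L showed the largest log2FC of the 8 genes. It had 50.1, 90.9 and 45.5 CPM in infested 5 h, against 2.49, 2.24 and 1.43 CPM in control 5 h, a log2FC of 4.92 (SE 0.54, adjusted p = 0.000117 by edgeR) or 30.2-fold. At 24 h it had 18.3, 6.58 and 25.1 CPM in infested leaves, against 1.06, 1.78 and 0.490 CPM in controls, a log2FC of 3.88 (SE 0.54, adjusted p = 0.000623 by edgeR) or 14.8-fold. All infested libraries of both times stood above all controls. At 5 h, 0.654% of all genes tested had a larger log2FC, and at 24 h 0.874% did.

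JA2, its close relative, was also up-regulated, but its highest levels came at the later harvest. It had 7.24, 17.5 and 8.86 CPM in infested 5 h, against 1.94, 2.57 and 1.63 CPM in control 5 h, a log2FC of 2.45 (SE 0.38, adjusted p = 0.00125 by edgeR). Its infested leaves of 24 h had 29.2, 28.9 and 31.0 CPM, against 9.42, 8.56 and 3.79 CPM in controls, a log2FC of 2.03 (SE 0.36, adjusted p = 0.00212 by edgeR). The infested libraries of 24 h differed by little, with a coefficient of variation of 3.79%, against 41.8% in the controls. Its control level was 7.26 ± 3.03 CPM (SD, n = 3) at 24 h and 2.05 ± 0.478 CPM (SD, n = 3) at 5 h, a log2FC of 1.83 (SE 0.38, adjusted p = 0.00352 by edgeR). For JA2L the same comparison gave 1.11 ± 0.648 CPM (SD, n = 3) at 24 h and 2.05 ± 0.557 CPM (SD, n = 3) at 5 h, a log2FC of -0.87 that was not called (SE 0.56, adjusted p = 0.280 by edgeR).

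Within libraries, the log2 ratio of JA2L counts to JA2 counts separated all 4 groups. It lay between 2.36 and 2.79 in infested 5 h and between -0.194 and 0.359 in control 5 h. It lay between -2.13 and -0.302 in infested 24 h and between -3.13 and -2.25 in control 24 h. JA2L was thus higher relative to JA2 in infested than in control leaves at each harvest, and lower relative to JA2 at 24 h than at 5 h with and without larvae. These ratios were chosen after the levels had been seen and carry no test.

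COI1, the receptor, was the only one of the 8 genes with a negative log2FC at 5 h. It had 18.7, 17.8 and 20.7 CPM in infested 5 h, against 29.2, 35.1 and 32.4 CPM in control 5 h, without overlap. Its log2FC was -0.76 (SE 0.13, adjusted p = 0.00259 by edgeR), which corresponds to a level 1.69-fold lower in infested leaves and is within the limit of 1.5 on the absolute log2FC. After 24 h the values were 25.6, 27.3 and 34.4 CPM in infested leaves, against 36.4, 34.6 and 39.6 CPM in controls, again with all infested libraries below the controls. The log2FC of -0.34 (SE 0.13, adjusted p = 0.0793 by edgeR) was not called with all libraries, but it was without infested 24 h replicate 3 (log2FC of -0.48, adjusted p = 0.0227). With library totals in place of TMM factors the median log2FC of all genes at 24 h was 0.21, and those of COI1 and MYC1 were -0.16 and -0.17.

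The response at 24 h was then compared with that at 5 h by the difference of the log2FC. None of the 8 genes was called in edgeR's quasi-likelihood test, against 2.16% of all genes (0.687% with a higher and 1.47% with a lower response at 24 h), and none was with DESeq2 or the likelihood ratio test. COI1 and MTB2 had an unadjusted p below 0.05, as did 3123 of the 18200 genes tested. The difference was 0.42 for COI1 (SE 0.19, adjusted p = 0.275 by edgeR) and -1.25 for MTB2 (SE 0.57, adjusted p = 0.291 by edgeR). For JA2L it was -1.03 (SE 0.72), for MTB1 -0.93 (SE 0.44), for *Solyc08g076930* -0.35 (SE 0.29) and for MTB3 -0.02 (SE 0.25). For JA2 it was -0.42 (SE 0.51) and for MYC1 -0.41 (SE 0.21). These sizes depended on single libraries. Without infested 24 h replicate 2, for example, the difference was -0.15 for *Solyc08g076930* and -0.85 for MTB2, and without infested 5 h replicate 2 it was -0.59 for MTB1 and 0.057 for JA2. The lower infested levels of *Solyc08g076930* at 24 h than at 5 h came with lower control levels, and a weaker response at 24 h was not shown for any of the genes.

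Between the controls of the harvests, 3 of the 8 genes were called, against 27.7% of all genes tested (13.7% higher and 14% lower at 24 h). The control 24 h libraries lay above all those of control 5 h for 3 of the 8 genes and below them for 2, against 21.3% and 23.2% of all genes. JA2 and MYC1 were higher at 24 h and *Solyc08g076930* was lower, with the values given above. These control libraries are also those of the comparisons with infested leaves. The other 5 genes had log2FC between -0.87 and 0.92. The harvest and the mapping input, which the table headers show as shared within a harvest, cannot be told apart.

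Single libraries stood apart among the infested leaves. In infested 5 h, replicate 2 was the highest library for all 6 up-regulated genes, from 1.90-fold the control mean for MTB3 to 44.2-fold for JA2L. It was also the highest for 74.5% of all genes up-regulated at 5 h. In infested 24 h, replicate 2 was the lowest library for all 6, at 1.29-fold the control mean for MTB2, 1.49-fold for MTB1 and 5.93-fold for JA2L. This library was the lowest for 64.1% of all genes up-regulated at 24 h. JA2 was the exception in size, at 3.99-fold in replicate 2 and 4.03-fold and 4.27-fold in replicates 1 and 3.

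**Figure D3:**
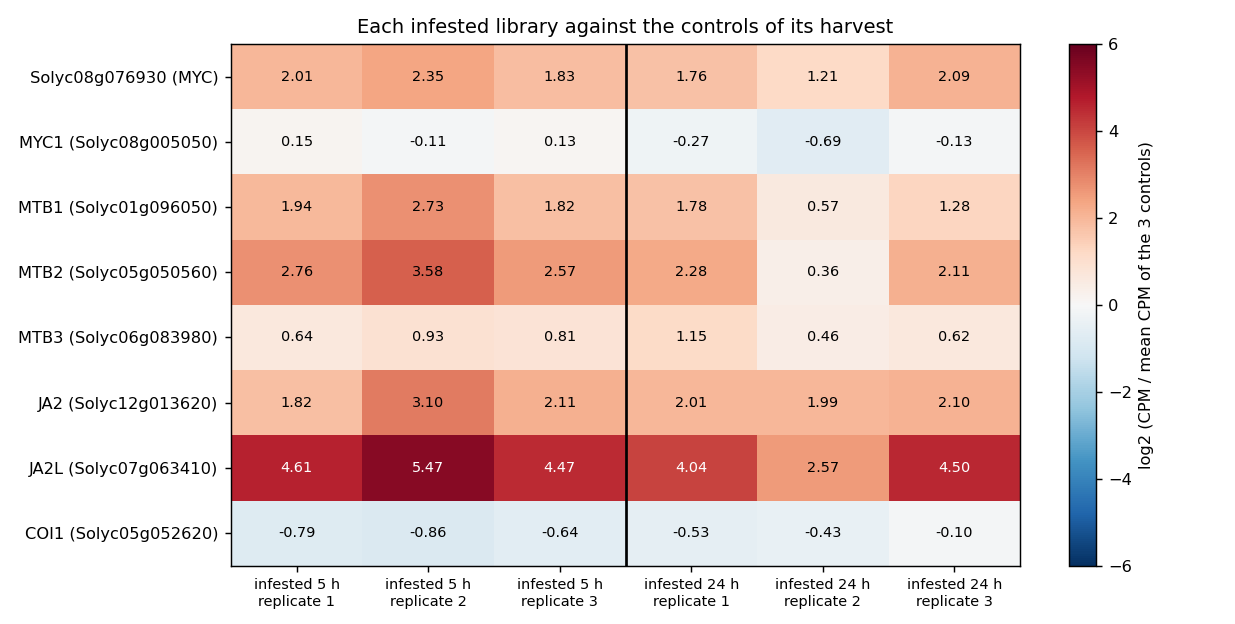
log2 ratio of the CPM of each infested library to the mean of the 3 controls of its harvest, for the 8 genes (rows) and the infested libraries of 5 h and 24 h (columns), in red above and in blue below the controls. Among the infested libraries of 5 h, replicate 2 has the largest ratio for each of the 6 up-regulated genes, up to 5.47 for JA2L, and among those of 24 h replicate 2 has the smallest, down to 0.36 for MTB2, while JA2 stays between 1.99 and 2.10 at 24 h.

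Other genes of the pathway were counted from lists of identifiers. The count tables and the reference used here do not pair these identifiers with names, so the lists are named as a whole. Of 6 genes listed for jasmonate synthesis, 5 were up-regulated at 5 h and 5 at 24 h, and none was down-regulated. Of these 6, 1 passed the filter only through infested libraries, and 4 of the other 5 were up-regulated at each time. Over all 6 genes, the 1 that passed only through infested libraries included, the median log2FC was 2.77 at 5 h and 2.22 at 24 h. Among the 6 is the allene oxide cyclase *Solyc02g085730*, which makes the cyclic jasmonate precursor. It had 383 ± 177 CPM in infested 5 h and 69.2 ± 3.69 CPM in control 5 h (SD, n = 3 each), a log2FC of 2.47 (SE 0.39, adjusted p = 0.00135 by edgeR). At 24 h its log2FC was 2.46 (SE 0.39, adjusted p = 0.00121 by edgeR). The paper names this gene among those up-regulated at 5 h in these same libraries, so it gives no independent evidence.

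Of 11 genes listed as JAZ repressors, the targets of COI1, 10 passed the filter, and 9 of these were up-regulated at 5 h and 9 at 24 h. However, 4 of the 10 passed the filter only through infested libraries, which favours a higher infested level among them. Of the other 6 genes 5 were up-regulated at each time. Genes without any count in the controls of a harvest were set to a lower bound, taking 3 counts in the whole control group as the floor. Over all 10 genes the median log2FC was then 4.63 at 5 h and 4.09 at 24 h. These medians include the 4 genes that passed only through infested libraries, so they do not describe the other 6 alone. Of the 10, 1 had a lower response at 24 h than at 5 h in the test of the difference. The summed level of the list was 424.5 CPM in infested 24 h replicate 2, against 1349 CPM or more in the other infested libraries of 24 h.

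Further downstream, the paper lists 12 genes as response to wounding, which encode proteinase inhibitors and were selected on these same libraries, so they give no independent evidence. Of these, 11 were up-regulated at 5 h and 11 at 24 h. Over all 12 genes the median log2FC was 6.45 at 5 h and 8.61 at 24 h. These medians include 3 genes that passed the filter only through infested libraries. All 3 genes listed for arginase and threonine deaminase, which break down amino acids that larvae need, were up-regulated at both times, with median log2FC of 8.40 at 5 h and 8.30 at 24 h. The paper names the arginases among them as strongly induced at both times in these same libraries, so these too give no independent evidence.

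**Figure D4:**
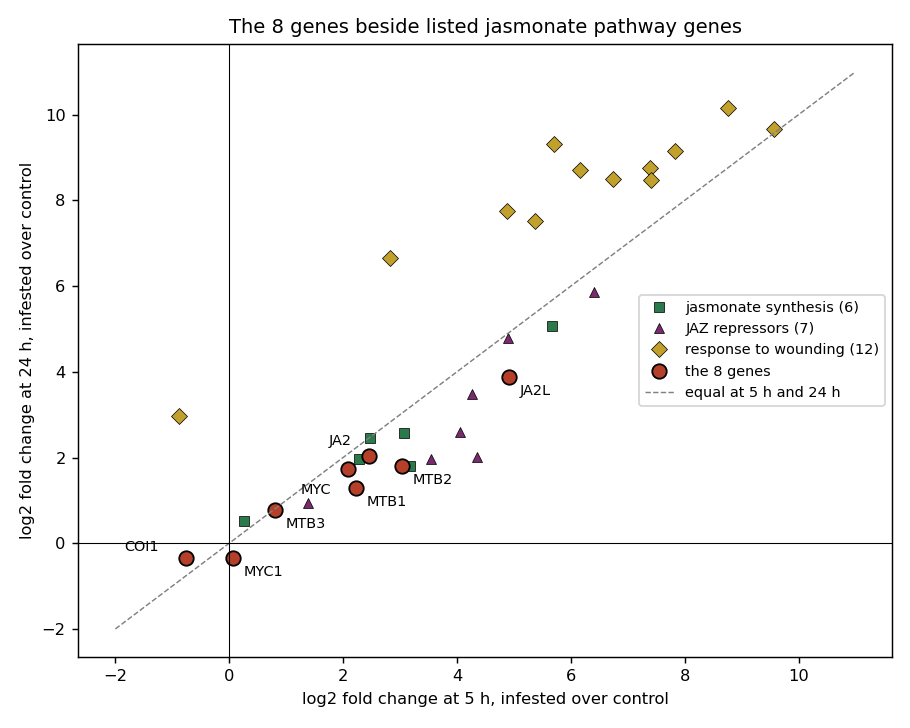
log2 fold change of infested over control at 5 h (horizontal) and 24 h (vertical) for the 8 genes (red circles), 6 listed jasmonate synthesis genes (squares), 7 listed JAZ genes with counts in the controls of both times (triangles) and 12 genes listed as response to wounding (diamonds), with a dashed line where both are equal. COI1 and MYC1 lie near the origin, the other members between 0.77 and 4.92, and 12 wounding genes above the line.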

How the data were processed

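RNA was measured in 12 libraries of leaflets from infested and control plants. The authors used Trimmomatic for trimming, BWA-MEM for mapping and featureCounts for counting. The paper speaks of FPKM, but each deposited table holds whole numbers, raw counts by gene. The paper names the annotation ITAG2.4, while the identifiers carry version suffixes from 1 to 5. The sources used here do not give the strand setting or the handling of multi-mapping reads. The RefSeq gene table holds none of the identifiers, so no coordinates or sequences are given.

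The counts of 34075 genes were taken to edgeR 4.0.16 (limma 3.58.1, R 4.3.3). A gene was tested if it exceeded 1 CPM in 3 or more libraries, after TMM normalization, in 1 fit of all 12 libraries with 1 mean per group. Quasi-likelihood F tests had Benjamini-Hochberg adjustment across 18200 genes. Standard errors are the log2FC divided by the square root of F. The alternatives included DESeq2 1.42.0. For listed genes without control counts, the floor was 3 counts over the 3 control libraries of a harvest, which covers counting error only. Within groups, libraries were further apart than sampling noise (chi-square of 10.5 to 140 per degree of freedom). The test was checked on simulated counts, with 200 of 17907 genes changed at each harvest and none between the controls. In the data far larger shares of genes were called at 5 h, at 24 h and between controls. The shares found in the simulation thus need not hold for the data. Of simulated 2-fold changes it found 60% at 5 h, 48% at 24 h and 20.9% for the difference of the responses. For 4-fold changes these shares were 95%, 91% and 80.5%. Under these settings a difference of the responses near 2-fold often went uncalled. The genes named are the 8 members, for each member the 2 genes closest in profile, and list genes that the paper annotates. The members and lists were chosen with earlier results of these data known.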

Additional observations from a re-analysis of the deposited data

How the results depend on the processing

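The 8 genes were followed under 21 alternatives: other scalings, filters and tests, a limit of 1.5 on the absolute log2FC, 1 harvest alone, the replicate block and each library left out. Of 656 values, 627 kept their direction and call, 9 lost and 10 gained a call, and 10 changed sign. None that changed sign was called. With the limit of 1.5, the number called was 5 in place of 7 at 5 h (COI1 and MTB3 lost), 4 in place of 6 at 24 h (MTB1 and MTB3 lost) and 1 in place of 3 between the controls (*Solyc08g076930* and MYC1 lost). With each library left out it was 6 to 7 at 5 h, 6 to 7 at 24 h, 0 for the difference of the responses and 3 to 4 between the controls. For MTB3 the difference of the responses became 0.17 with library totals only and lay between -0.25 and 0.11 with a library left out, and its difference between the controls became 0.094 with library totals only and lay between -0.097 and 0.057 with a library left out. For JA2 the difference of the responses lay between -0.73 and 0.057, above 0 only without infested 5 h replicate 2. With a library left out, it lay between -1.46 and -0.53 for JA2L, -1.25 and -0.59 for MTB1, -1.56 and -0.85 for MTB2, -0.57 and -0.15 for *Solyc08g076930*, -0.53 and -0.26 for MYC1 and 0.28 and 0.51 for COI1, and none was called. With the replicate number as a block, 7, 6, 0 and 3 of the 8 genes were called in the 4 comparisons. With the libraries of 24 h fitted alone, 5 of the 8 genes were called at 24 h. Their adjusted p values by edgeR lay between 0.0144 (*Solyc08g076930*) and 0.0479 (MTB2), with 0.0435 for MTB1. No pairing by number was evident, though so few libraries cannot exclude one. Within a harvest the deviations of same-numbered libraries had r between -0.13 and 0.26 across genes, and 2 of 12 libraries were closest to their own number. Over all 18 same-numbered pairs between groups r lay between -0.266 and 0.343. Over all genes, the count called for the difference of the responses was 393, but 843 with the likelihood ratio test, 1131 with DESeq2, 119 with the limit of 1.5, 216 with the block and 13 (without control 5 h replicate 2) to 831 (without infested 24 h replicate 3) with a library left out. That limit also gave 778 genes at 5 h, 817 at 24 h and 1308 between controls, and 1 harvest alone gave 1952 at 24 h. With a library left out, the count was 1226 (without infested 5 h replicate 2) to 2690 at 5 h and 2721 (without infested 24 h replicate 1) to 4666 at 24 h. The cause was not tested.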

Other observations

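The genes whose profile over the 12 libraries was closest to that of each member were found by the root mean square difference of log2 CPM, each gene centred on its own mean. This is a description, since all genes share the libraries and groups. The profiles were not scaled to equal spread, so a small difference can reflect small changes rather than a shared pattern. For *Solyc08g076930* they were *Solyc09g008520* (0.215) and *Solyc11g068960* (0.252). For MTB2 they were *Solyc12g010980* (0.273) and *Solyc03g122340* (0.328), and *Solyc03g122340* is on the list for jasmonate synthesis. For MTB1 they were *Solyc06g068650* (0.268) and *Solyc09g090380* (0.283), and for MTB3 *Solyc07g040730* (0.0998) and *Solyc10g046970* (0.130). MYC1 was closest to *Solyc01g095570* (0.137) and *Solyc06g068970* (0.139), and COI1 to *Solyc02g072530* (0.117) and *Solyc05g009080* (0.118). JA2 was closest to *Solyc02g082910* (0.388) and *Solyc06g066540* (0.507), and JA2L to *Solyc01g005870* (0.455) and *Solyc12g014430* (0.535), so that the NAC genes had no neighbour as near as the others had. Among the members themselves, MYC1 and COI1 differed by 0.372 and *Solyc08g076930* and MTB2 by 0.472, the smallest values of the 28 pairs.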
